A study of Spirodela polyrhiza with 12 samples.

Results

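Among 18099 genes measured in leaves of Spirodela polyrhiza, the giant duckweed, 173 stood at middle temperature at 0.4 of their indoor level or less and kept about the same level at high temperature. They were chosen from deposited FPKM (fragment counts scaled by transcript length and library size) in all 12 libraries. Each library was scaled so that its median, over the 12316 genes that reached an FPKM of 1 in every library, became 15. These values are called scaled FPKM here, and 0.5 was added to each group mean before a ratio was taken. A gene was kept if its highest group mean reached 5, if the ratio of middle to indoor was at most 0.4 and if the ratio of high to middle lay within 1.5-fold of equality. The 100 genes with the highest mean indoor FPKM were left out, which removed 3 further genes that met the ratios.

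The libraries formed a temperature series of 3 groups with 4 libraries each, labelled as indoor temperature, middle temperature and high temperature, and the indoor group was the control. All came from leaf RNA. The labels give no temperature in degrees, exposure time or duckweed strain. The study's title places the series in work on aquaporins under high-temperature stress.

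Duckweeds are floating plants reduced to small leaf-like fronds that divide vegetatively, so the sampled leaf holds growing as well as mature tissue. Plants that warm up re-set their transcriptome: messenger RNAs of many household and growth processes are made less or broken down faster while those of protective proteins accumulate. A transcript that has reached its lower level under mild warming and keeps it under stronger warming behaves differently from one that recovers or goes on falling, and the 173 genes were gathered as the first kind. The files give identifiers without names, so the functions of these genes, and the leaf label, could not be checked against known genes. In bulk leaf RNA, fewer cells of a type and less RNA per cell cannot be told apart.

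Estimated counts summed to between 23655239 and 32711880 per library. The library median of FPKM was 21.5 to 22.8 in the indoor group, 22.4 to 26.0 in the middle group and 12.1 to 14.8 in the high group, so comparisons with the high group depend on the scaling. Within the indoor group, libraries 1 and 2 stood apart from libraries 3 and 4 for a part of the members. Calls against indoor temperature and the middle-to-indoor ratio are therefore also given by indoor pair. Other results, among them count shares and counts of separated libraries, use all 4 indoor libraries.

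The middle-to-indoor ratio of the members had a median of 0.326 and ran from 0.0534 to 0.39969. It was at most 0.2 for 19 members and above 0.3 for 101, so most members lay closer to the limit than to the lowest ratio. The member nearest the limit stood at 0.39969, and the next gene outside it at 0.40087. Across all 11741 genes that reached the level minimum outside the 100 abundant ones, the same ratio had a median of 0.962. These ratios chose the members and describe them without a test.

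The members spanned a wide range of levels. Their indoor mean had a median of 28.9 and ran from 5.08 to 551, with 39 members at 100 or more and 42 below 10. At middle temperature the median was 8.05 and at high temperature 8.87. No member was at 0 in every middle or every high library, though 8 had a count of 0 in at least 1 library. The lowest member to enter had a highest group mean of 5.08, and the highest gene kept out by the level minimum reached 4.94.

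Genes at 0.4 or less of their indoor level at middle temperature numbered 487 in all. In 280 genes the level was at least 1.5-fold higher again at high temperature, and in 34 it was at least 1.5-fold lower again. The members nearest the limits of the high-to-middle ratio stood at 0.668 and 1.498, and the nearest genes outside them at 0.661 and 1.504. Of the 173 members, 121 had a higher mean at high than at middle temperature and 52 a lower one, with a median ratio of 1.13.

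**Figure D1:**
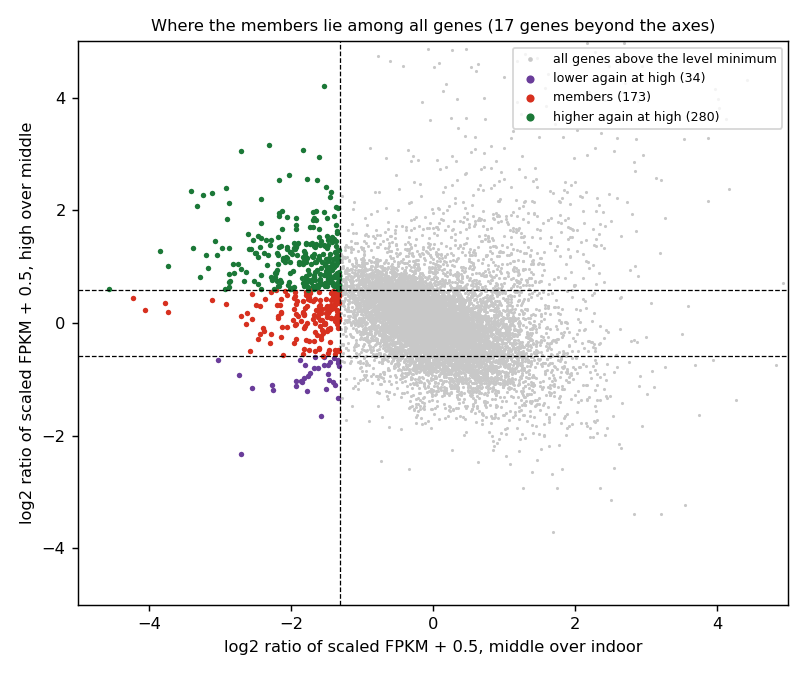
Each point is a gene above the level minimum, with the log2 ratio of middle over indoor on the x axis and of high over middle on the y axis, both on scaled FPKM + 0.5. Dashed lines mark the limits of the rule; left of the upright line lie 280 genes that were higher again at high temperature, the 173 members and 34 genes that were lower again, and 17 genes fall beyond the axes.

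As a share of all counts the members took 2.32%, 1.77%, 1.76% and 1.52% in indoor libraries 1 to 4. They took 0.663%, 0.496%, 0.568% and 0.673% in middle libraries 1 to 4, and 0.423%, 0.528%, 0.312% and 0.349% in high libraries 1 to 4. All 4 indoor libraries lay above all middle and high libraries. The means were 1.84% ± 0.339 in the indoor group, 0.600% ± 0.0839 in the middle group and 0.403% ± 0.0950 in the high group (SD, n = 4 each). These shares are not scaled, and the order of the middle and high groups turned in scaled FPKM, where the members summed to 3518 ± 678 at middle and 4201 ± 883 at high temperature.

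The median member level showed the same order between groups and a spread inside the control group. It was 33.1, 25.1, 19.8 and 17.4 scaled FPKM in indoor libraries 1 to 4. In middle libraries 1 to 4 it was 8.49, 5.75, 6.94 and 7.16, and in high libraries 1 to 4 it was 9.27, 9.25, 7.44 and 5.98. The middle and high libraries overlapped, and every indoor library lay above them.

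**Figure D2:**
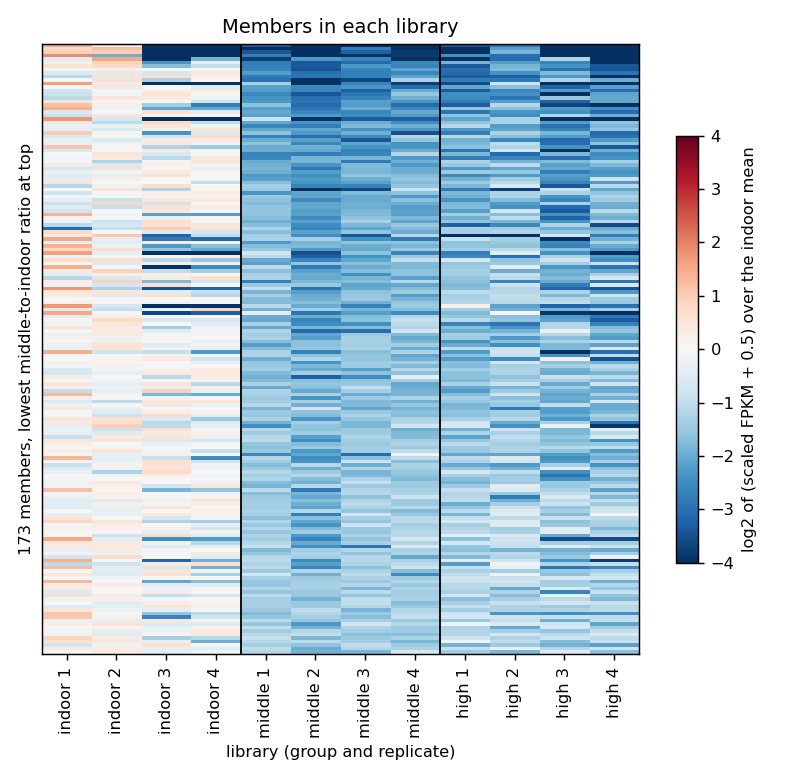
Rows are the 173 members, with the lowest middle-to-indoor ratio at the top, columns are the 12 libraries in temperature order, and colour is the log2 of scaled FPKM + 0.5 over the indoor mean of the gene. The middle and high columns are blue (lower than the indoor mean) in nearly all rows, and some rows are dark blue in indoor libraries 3 and 4 as well, among them those at the top.

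All 173 members passed the filter for testing, which asked for an FPKM of 1 or more in 4 or more libraries. In edgeR's quasi-likelihood fit over 15209 genes, 145 members were called lower at middle than at indoor temperature, beside 17.7% of all genes tested. Against the same controls 129 were called lower at high temperature, beside 15.8% of all genes. Both calls were met by 127 members, the middle call alone by 18, the high call alone by 2 and neither by 26. The rule used these contrasts and both share the indoor libraries, so the counts describe the members and nothing is read from them. Excluding indoor libraries 1 and 2, an alternative added after seeing the data, 171 members passed the filter, 115 were called lower at middle temperature, beside 13.5% of all genes, and 1 was called higher, beside 16.2%. In that fit 105 were called lower at high temperature, beside 11.5% of all genes, and 2 were called higher, beside 15.3%. Excluding indoor libraries 3 and 4, 145 were called lower at middle temperature, beside 11.2% of all genes, and 136 at high temperature, beside 12.6%.

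The members' fitted log2 fold changes for middle against indoor temperature had a median of -1.75 and ran from -4.69 to -1.35, beside a median of -0.02 over all genes tested. For high against indoor temperature the median was -1.59, with a range from -4.31 to -0.78, beside -0.04 over all genes.

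Complete separation of the libraries was less common than a call. In scaled FPKM, all 4 middle libraries lay below all 4 indoor libraries for 128 of 173 members, beside 20.1% of all genes above the level minimum. All 4 high libraries lay below all 4 indoor libraries for 101 members, beside 14.9% of all genes.

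The member with the highest indoor level was Spipo13G0055500.v2. Its scaled FPKM was 778, 396, 814 and 214 in indoor libraries 1 to 4, then 338, 146, 273 and 98.5 in middle libraries 1 to 4 and 271, 481, 177 and 286 in high libraries 1 to 4. Indoor library 4 lay below middle libraries 1 and 3, so the groups overlapped. The log2 fold change was -1.38 ± 0.47 between middle and indoor temperature and -0.87 ± 0.47 between high and indoor temperature (edgeR, SE).

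Spipo20G0029800.v2, the second in indoor level, was steadier. It had a scaled FPKM of 317, 493, 486 and 413 in indoor libraries 1 to 4, of 171, 109, 78.9 and 140 in middle libraries 1 to 4, and of 166, 223, 109 and 174 in high libraries 1 to 4. Every indoor library lay above every middle and every high library, and the middle and high ranges overlapped. The log2 fold changes were -1.79 ± 0.26 for middle against indoor, -1.36 ± 0.26 for high against indoor and 0.44 ± 0.25 for high against middle temperature.

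In the 2 members with the lowest high-to-indoor ratios, the indoor level came from libraries 1 and 2. Spipo0G0103100.v2 stood at 44.1 and 57.1 scaled FPKM in indoor libraries 1 and 2 and was listed at 0 in indoor libraries 3 and 4. In middle libraries 1 to 4 it was listed at 0.857, 0, 3.33 and 0, and in the high group at 5.24 in library 2 and at 0 in the others. Its ratio of high to indoor temperature was 0.0701 against a control mean that libraries 3 and 4 did not share, and its log2 fold change for high against indoor was -4.31 ± 2.15.

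Spipo0G0140900.v2 showed the same layout, at 90.6, 40.9, 0.145 and 0 in indoor libraries 1 to 4. It was at 2.90, 1.23, 1.01 and 0 in middle libraries 1 to 4 and at 2.66, 4.03, 1.07 and 0 in high libraries 1 to 4. Indoor libraries 3 and 4 lay at or below most treated libraries. The log2 fold change was -4.69 ± 1.94 for middle against indoor temperature, and with indoor libraries 1 and 2 left out it turned to 4.03.

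The level between middle and high temperature was close to flat by construction, and the members at its edges lie next to the limits set by the rule. Spipo0G0181500.v2 had the highest ratio, at 1.498. Its scaled FPKM was 172, 92.5, 206 and 60.4 in indoor libraries 1 to 4, then 51.5, 33.2, 44.7 and 28.3 at middle and 52.4, 67.7, 37.9 and 79.5 at high temperature. The middle and high libraries overlapped, with a log2 fold change of 0.59 ± 0.35 for high against middle.

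Spipo11G0026700.v2 came next, at a ratio of 1.498. It was at 34.2, 42.0, 19.8 and 19.2 in indoor libraries 1 to 4, at 9.74, 5.41, 16.3 and 12.7 in middle libraries 1 to 4 and at 25.1, 19.1, 16.6 and 6.37 in high libraries 1 to 4. Indoor libraries 3 and 4 fell inside the high range, and the log2 fold change between high and middle was 0.62 ± 0.42.

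At the lower edge, Spipo1G0124700.v2 had a high-to-middle ratio of 0.668. It was at 33.1, 20.4, 24.2 and 25.4 in indoor libraries 1 to 4, at 6.74, 14.6, 5.75 and 6.66 in middle libraries 1 to 4 and at 7.28, 3.22, 5.37 and 5.98 in high libraries 1 to 4. Both treated groups lay wholly below the indoor group, and a single middle library, the second, lifted the middle mean. The log2 fold change for high against middle was -0.59 ± 0.33.

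Spipo22G0030200.v2, at a ratio of 0.677, was low outside the controls. It was at 4.60, 6.66, 2.13 and 6.64 in indoor libraries 1 to 4, between 0.407 and 1.03 in the middle libraries, with estimated counts of 40 to 104, and at 0.317, 0.407, 0.172 and 0.553 in high libraries 1 to 4, where the counts were 9 to 28. Here the added 0.5 sets much of the ratio, and edgeR's log2 fold change for high against middle was -1.04 ± 0.43.

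**Figure D3:**
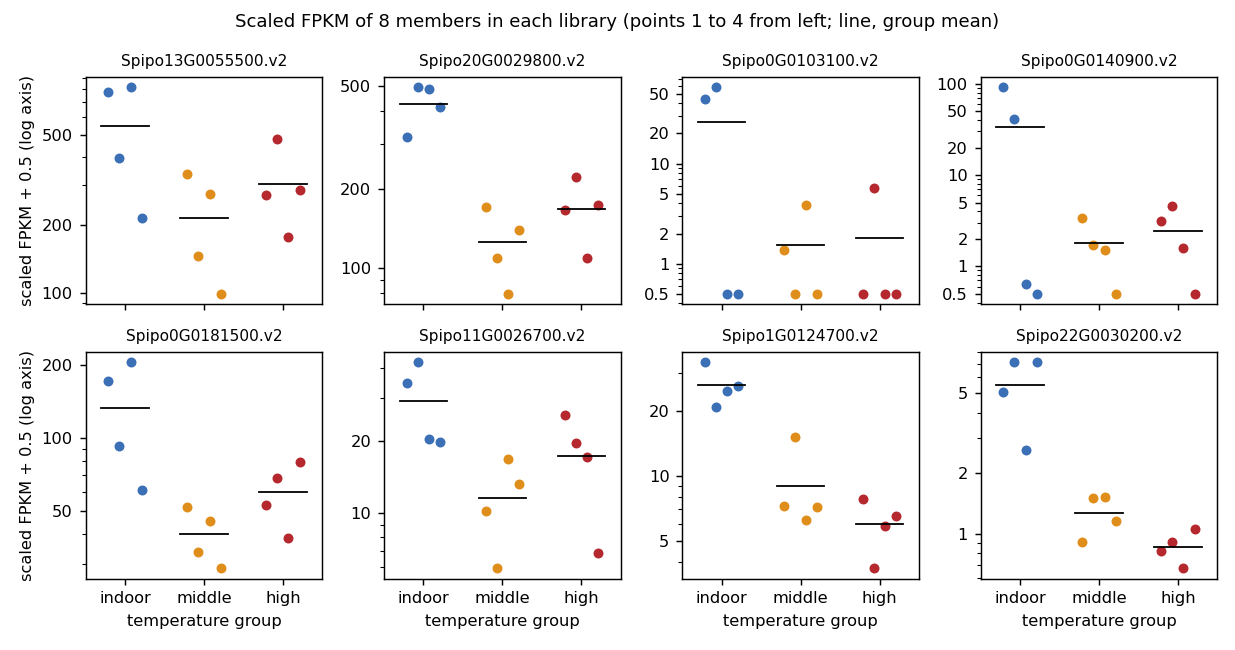
Scaled FPKM + 0.5 on a log axis for 8 members in each library, with replicates 1 to 4 from left to right in each group and a line at the group mean. In Spipo0G0103100.v2 and Spipo0G0140900.v2 the indoor mean lies between 2 high and 2 low libraries, while in Spipo20G0029800.v2 and Spipo1G0124700.v2 the 4 indoor libraries lie together above the rest.

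Few members were called as different between the treated groups, and a missing call does not show equal levels. edgeR's quasi-likelihood fit called 3 of 173 higher at high than at middle temperature, beside 15.9% of all genes, and 0 lower, beside 14.5%. DESeq2 called 4 higher and 2 lower, beside 18.3% and 17.1% of all genes. The rule limits this ratio, so nothing is read from these shares. The 3 members were Spipo13G0022300.v2, Spipo14G0002600.v2 and Spipo2G0072500.v2, named after their values were seen. The total of called members was 7 without high replicate 1 (6 higher, 1 lower) and 7 without high replicate 3 (5 higher, 2 lower). It was 5 without middle replicate 1 (3 higher, 2 lower). Across the fits without 1 library, 11.3% to 16% of all genes were called higher and 10% to 16.6% lower.

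These 3 had tight groups. Spipo14G0002600.v2 was between 16.8 and 20.1 in the indoor libraries, at 7.21, 6.52, 7.64 and 6.70 in middle libraries 1 to 4 and at 10.5, 9.82, 11.5 and 10.7 in high libraries 1 to 4. The high libraries lay above the middle ones and below the indoor ones without overlap, with a log2 fold change of 0.61 ± 0.12 between high and middle. Spipo13G0022300.v2 and Spipo2G0072500.v2 showed the same layout, with log2 fold changes of 0.71 ± 0.18 and 0.61 ± 0.15. With Spipo32G0010900.v2, also chosen after its values were seen, they made up the 4 members whose high libraries all lay above their middle libraries, beside 18.3% of all genes. For 0 members did the high libraries all lie below the middle ones, beside 15% of all genes.

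The plateau is a statement about scaled values. In FPKM as deposited, the median ratio of high to middle was 0.691 for the members and 0.600 for all genes above the level minimum, against 1.13 and 1.03 in scaled FPKM. Applied to FPKM as deposited, the same rule kept 260 genes, of which 79 were members. With TMM factors in place of library medians it kept 174 genes, of which 169 were members. Without TMM, edgeR called 48 members lower at high than at middle temperature, while it called 62.9% of all genes lower, and the log2 fold change had a median of -0.59 over the members and -0.82 over all genes. Against indoor temperature without TMM, 139 members were called lower at middle temperature, beside 11.9% of all genes. At high temperature 160 were called lower, beside 57.2% of all genes, and the median log2 fold change of that fit was -0.73 over all genes.

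The members varied more among replicate libraries than the average gene, and so did the other genes with a middle-to-indoor ratio of at most 0.4. The coefficient of variation among the 4 indoor libraries had a median of 39.6% for the members and 18.4% for all genes above the level minimum. It was 42.2% for the genes lower again and 38.8% for those higher again at high temperature, on both sides of the members' value. At middle temperature the medians were 28.9% for the members and 15.9% for all genes, and at high temperature 40.5% and 20.7%, beside 59.6% in the genes lower again and 39.7% in those higher again. The order was the same at low, intermediate and high indoor levels, where the indoor medians were 35.8%, 41.2% and 41.9% for members and 19.2%, 16.0% and 17.4% for all genes. Highest and lowest indoor library differed at least 4-fold for 45 members, or 26.0%, and for 4.62% of all genes. The rule averages 4 libraries, so a gene with 1 or 2 high indoor libraries can meet it, and the variation inside the indoor group is not independent of the choice.

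The disagreement had a direction. For 66 members, or 38.2%, both indoor libraries 1 and 2 lay above both indoor libraries 3 and 4, beside 20.7% of all genes. The reverse held for 46 members, or 26.6%, beside 27.6% of all genes. Among the genes lower again at high temperature the 2 orders held for 29.4% and 17.6%. Among those higher again they held for 23.6% and 33.6%. With the difference taken on the log2 scale and a limit of 2-fold, chosen after the values were seen, 48 members were higher in indoor libraries 1 and 2, 13 were higher in indoor libraries 3 and 4, and 112 lay between. Among all genes above the level minimum 4.28% and 1.53% passed the same limits.

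The 48 members had a median scaled FPKM of 65.8 and 36.4 in indoor libraries 1 and 2, and of 4.95 and 6.61 in indoor libraries 3 and 4. Their medians in middle libraries 1 to 4 were 9.82, 5.69, 7.79 and 6.95, and in high libraries 1 to 4 they were 10.8, 11.8, 7.05 and 4.54. Indoor libraries 3 and 4 thus lay inside the range of the treated libraries for this set. Measured against indoor libraries 3 and 4 alone, its median ratio of middle to indoor was 0.931, and 2 of the 48 stayed at 0.4 or less, Spipo11G0038100.v2 and Spipo14G0059500.v2, named after their values were seen. Against indoor libraries 1 and 2 alone all 48 met the limit.

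The 112 members between the limits behaved differently. Their median scaled FPKM was 21.6, 21.7, 23.7 and 21.9 in indoor libraries 1 to 4, then 5.60 to 7.74 in the middle libraries, and 7.82, 7.44, 7.90 and 6.68 in high libraries 1 to 4. The 4 indoor medians lay within a narrow band well above the treated ones. All middle libraries lay below all indoor libraries for 106 of the 112, and all high libraries for 90. In the set of 48 these counts were 11 and 5, and among the 13 members of the opposite kind they were 11 and 6. The shares of all genes above the level minimum were 20.1% and 14.9%, and the set of 48 lay near them. edgeR called 109 of the 112, 23 of the 48 and 13 of the 13 lower at middle than at indoor temperature, beside 17.7% of all genes tested. It called 102, 17 and 10 lower at high than at indoor temperature, beside 15.8%. Sorting by agreement among indoor libraries fixes part of this contrast, so it describes where the calls lie and is no test.

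**Figure D4:**
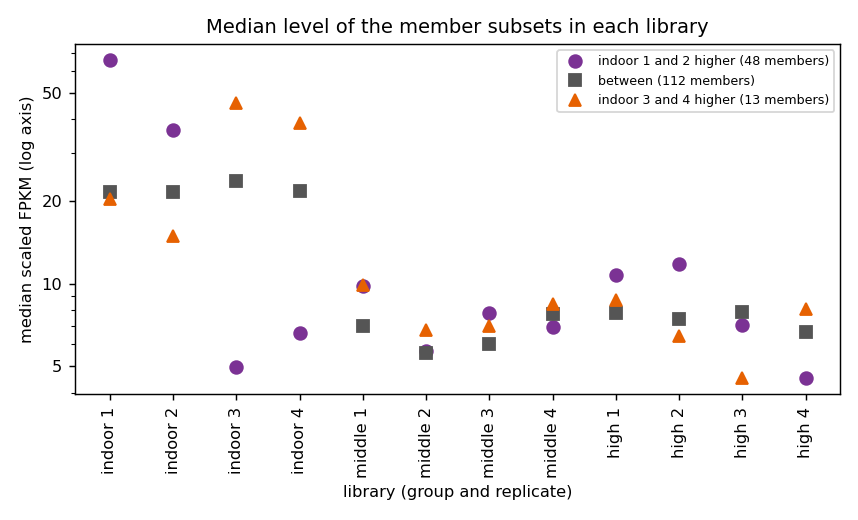
Median scaled FPKM, on a log axis, of the 48 members that were higher in indoor libraries 1 and 2, the 112 between the limits and the 13 that were higher in indoor libraries 3 and 4, by library. The 48 stand at 65.8 and 36.4 in indoor libraries 1 and 2 and at 4.95 and 6.61 in indoor libraries 3 and 4, next to the treated libraries, while the 112 stay between 21.6 and 23.7 in all indoor libraries.

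The 48 members also differed among the treated libraries. Those libraries did not enter the split by the indoor difference, but they took part in choosing the 173 members, so the values describe the set and support nothing. High library 4 was the lowest high library for 28 of the 48 and the highest for 0, whereas among the 112 it was the lowest for 21 and the highest for 28. High library 2 was the highest for 25 of the 48. In the middle group library 2 was the lowest for 30 of the 48, and also for 59 of the 112, beside 31.5% of all genes above the level minimum. Over all these genes, high library 4 was the lowest high library for 20.7% and the highest for 27.5%. High library 2 was the highest for 21.5% of them. Across the 173 members, which are genes and not replicates, the indoor difference correlated with the deviation of high library 4 from its group at r = -0.65, of high library 2 at 0.50, of high library 1 at 0.28 and of high library 3 at -0.09. Over all 11741 genes these values were -0.36, 0.14, 0.24 and -0.02. For middle libraries 1 to 4 the members gave 0.45, -0.29, 0.10 and -0.18, and all genes 0.05, -0.12, -0.02 and 0.12. All points share their libraries and scaling, and no label names a batch.

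**Figure D5:**
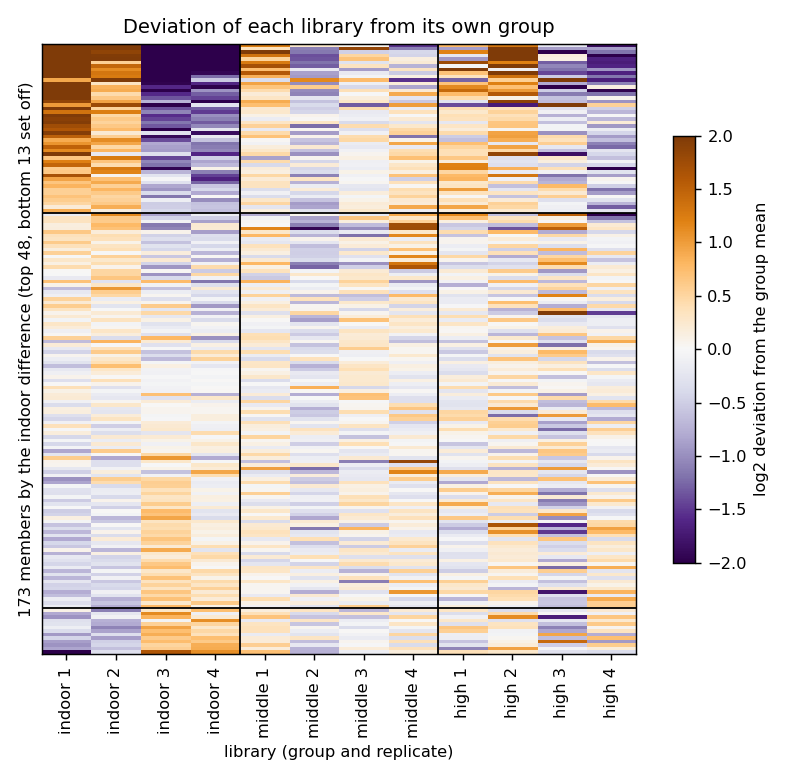
Rows are the 173 members ordered by the log2 difference between indoor libraries 1 and 2 and indoor libraries 3 and 4, with the top 48 and the bottom 13 set off by lines; colour is the log2 deviation of a library from its own group's mean. Among the top 48 rows, high library 4 is mostly purple (below its group) and high libraries 1 and 2 mostly orange (above it).

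Leaving a library out of the choice gave values that the rule had not used. With each middle library left out in turn, the rule kept 156 to 182 genes. In the left-out middle library these genes had a median log2 ratio to the indoor mean of -1.51, -2.05, -1.61 and -1.64 for libraries 1 to 4, beside -1.65, -1.64, -1.65 and -1.69 in the libraries that chose them. Between 98.9% and 100% of them lay below the indoor mean in the left-out library. The indoor libraries still had a part in each of these choices, so the ratios are partly fixed by them. The same shares over all genes were not computed.

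The left-out indoor libraries were less even. Genes chosen without indoor library 1 or 2 had median log2 ratios of middle to that library of -1.48 and -1.48, and 98.7% of the genes lay lower at middle temperature in either case. Chosen without indoor library 3 or 4, the ratios were -1.05 and -1.19, and 80.1% lay lower in either case. The middle mean in these ratios is the one that chose the genes for being low, so the ratios are partly fixed. Shares over all genes were not computed here either. In left-out high libraries 1 to 4 the median log2 ratio to the indoor mean was -1.45, -1.31, -1.70 and -1.58.

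Membership itself moved with single libraries. The rule kept 46 of the 173 members in all 12 choices that left out 1 library, and 9 members in 6 or fewer of them. The 46 had a median middle-to-indoor ratio of 0.285 and a median high-to-middle ratio of 1.05. Of these, 41 lay between the limits of the indoor difference and 3 were among the 48. In 44 of the 46 every middle library lay below every indoor library, beside 20.1% of all genes above the level minimum. Keeping a gene in all 12 choices favours genes whose indoor libraries agree. These counts are therefore partly fixed by the choice and only describe the 46.

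Transcript length, which the rule did not use, was read from the ratio of deposited count to FPKM within each gene, in units of the median of all genes above the level minimum. The members had a median relative length of 0.912, with the central part of the distribution from 0.595 to 1.43 (lower and upper quartile). For all genes the quartiles were 0.598 and 1.53. The genes that were higher again at high temperature had a median of 0.961 and those lower again 1.03. The members' quartiles lay close to those of all genes, and genes are not replicates, so no test was made.

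The members fell under most opening numbers of the identifiers, and a part of them stood next to each other. The identifiers open with a number from 0 to 32, and 31 of these 33 numbers held at least 1 member. Of the 967 genes above the level minimum whose identifier opens with 0, 26 were members, or 2.69%, beside 1.47% of all genes. The share was 5.48% (4 of 73 genes) for 32, the highest, 2.68% (8 of 299 genes) for 22, and 0 of 81 and 0 of 83 genes for 30 and 31. In 13 cases 2 members stood next to each other in identifier order among the genes above the level minimum. These pairs held 26 of the 173 members, while members made up 1.47% of the genes in that order. Such pairs held 44 of the 280 genes higher again and 2 of the 34 lower again at high temperature. The number of pairs that a random choice would give was not computed. Within groups, the deviations of the neighbouring members correlated with a median r of 0.73 over the 12 libraries. Of the 13 pairs, 10 exceeded 0.5, while the lowest pairs stood at -0.60 and -0.51. Neighbouring pairs among the genes higher again at high temperature had a median of 0.72 over 24 pairs, close to that of the members. The median was 0.05 over all 14878 pairs of members and 0.09 over all 11708 neighbouring pairs of genes above the level minimum. Of the 13 pairs, 8 fell in the same set by the indoor difference. Whether neighbours are near-identical copies, between which the authors' counting may have divided reads, was not tested, and their values are uncertain in that respect.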

How the data were processed

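Leaf RNA of 12 Spirodela polyrhiza libraries was measured by sequencing of poly(A)-selected RNA, with dUTP marking of strand and molecular identifiers in the adapters, per the labels' protocols. Per the submitters' processing notes the tools were, in no stated role or order, StringTie 1.3.4d, HISAT2 2.0.4, edgeR, DESeq2, cutadapt 1.9 and UMI-tools. The sources used here name no genome build and no strand setting for the counting. The deposited table holds 1 FPKM column and 1 column of estimated counts per library, per the file headers. The deposited counts were already whole, and in 18095 of 18099 genes they lay within 1 count plus 0.1% of a fixed multiple of FPKM, so they were treated as estimated counts and used as deposited.

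Members were found from FPKM with Python 3.11.15. Calls came from the quasi-likelihood test of edgeR 4.0.16 under R 4.3.3, with TMM, a robust trended dispersion and all 12 libraries in 1 fit. A call needed a Benjamini-Hochberg adjusted p under 0.05 over the 15209 genes that reached an FPKM of 1 in 4 or more libraries. The design foresaw raw counts. The standard error was taken as the size of the log2 fold change over the square root of F. Alternatives used limma 3.58.1 and DESeq2 1.42.0. Depth per library was 23655239 to 32711880 counts, and edgeR's common biological coefficient of variation was 30.1%. The labels do not tell whether replicates were grown separately; the p-values then measure only the spread between these libraries, which may be technical.

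The members and lists were chosen with earlier results of these data known, and gene lists by function could not be used without gene names. Genes are named by level and ratio: the 2 members of highest indoor mean, the 2 of lowest high-to-indoor ratio, and the 2 of highest and the 2 of lowest high-to-middle ratio. Other named members are marked as chosen after their values were seen.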

Additional observations from a re-analysis of the deposited data

Results flagged for a closer look

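Among 30 sets of 4 libraries (8 named members and the members' sum and median, in each group), 2 had 1 library so far from its neighbours that the gap, as a share of the whole range, passed the 95% limit of Dixon's test. Chance alone marks about 1 in 20 such sets. The scaled FPKM of Spipo0G0103100.v2 in high library 2 was 5.24, and the other 3 high libraries were listed at 0. The scaled FPKM of Spipo1G0124700.v2 in middle library 2 was 14.6, against 5.75 to 6.74 in the other middle libraries. The gap was 0.888 of the range.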

How the results depend on the processing

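Fits without indoor replicates 1 and 2, or 3 and 4, were added after seeing the data. Of 182 recomputed summary values, 160 stayed within 1.5 times or within the spread between libraries, and 22 did not. None of the named members' log2 fold changes called in the reported fit changed sign under an alternative. The members' median log2 ratios against indoor temperature also kept their sign. Counts were compared by size alone, without regard to direction. The calls between high and middle temperature did turn, from 3 higher and 0 lower to 48 lower and 0 higher with library totals. Among the named members' log2 fold changes that were not called in the reported fit, 26 recomputed values changed sign. One was that of Spipo0G0140900.v2 for middle against indoor temperature, with indoor libraries 1 and 2 left out. The 173 members numbered 260 on FPKM as deposited, 110 and 383 with a middle-to-indoor limit of 0.35 and 0.5, and 98 and 311 with a narrower and a wider high-to-middle limit. Leaving out each library gave 152 to 201 members. The 34 genes lower again at high temperature numbered 100 on FPKM as deposited and 108 on TPM, and the 280 higher again numbered 83 and 79. The members' median log2 ratio of high over indoor, -1.53 as reported, was -2.19 on FPKM as deposited and -2.20 on TPM, by construction of these scales. The median log2 ratio of middle over indoor, -1.62 as reported, ran from -2.05 to -1.05 over left-out libraries read alone, and was -1.19 in indoor replicate 4. Against indoor replicates 3 and 4 alone, 111 members kept a ratio of at most 0.4, and 139 against indoor replicates 1 and 2 alone.

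Members called between high and middle temperature, 3 as reported, numbered 48 with library totals, 6 with DESeq2, 46 and 50 with limma on log2(FPKM + 1) and log2(FPKM + 0.1), and 3 to 7 without 1 library. With library totals and these limma settings all 48, 46 and 50 were lower, beside 62.9%, 64.4% and 64.1% of all genes. Library totals and these limma settings adjust for library size alone, without TMM factors or library medians. In contrast, limma on scaled FPKM called 3 higher and 0 lower, beside 15.7% and 16% of all genes. Without 1 library, 11.3% to 16% of all genes were called higher and 10% to 16.6% lower. The cause of the DESeq2 count was not tested. Members called lower numbered 128 to 148 at middle and 115 to 131 at high temperature without 1 library (all genes 13.6% to 18.9% and 13% to 15.4%), and 115 and 105 without indoor replicates 1 and 2. A replicate block by number left 135 members called lower at middle (15.2% of all genes), 122 called lower at high (14.1%) and 3 called between high and middle temperature. Libraries with the same number showed little shared deviation. Their correlations ran from -0.28 to 0.27, 3 of 12 pairs lay above 0.1, and 2 libraries matched their own number best. Such values cannot decide whether the numbers mark a pairing, and the reported fit assumed none. Estimated counts of 9 to 28, as in Spipo22G0030200.v2 at high temperature, limit the ratios of the lowest members.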

Other observations

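The 3 genes that met the ratios but belong to the 100 most abundant indoor genes, named here after their values were seen, split in the same way as the members. Spipo32G0004900.v2 had a scaled FPKM of 3558, 949, 62.9 and 72.2 in indoor libraries 1 to 4, of 498, 78.8, 237 and 127 in middle libraries 1 to 4 and of 320, 541, 126 and 120 in high libraries 1 to 4. Its indoor libraries 3 and 4 lay below every middle and every high library.

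Spipo4G0107200.v2 had a scaled FPKM of 994, 1192, 1183 and 1073 in indoor libraries 1 to 4, of 458, 305, 429 and 465 in middle libraries 1 to 4 and of 415, 405, 541 and 506 in high libraries 1 to 4. The indoor libraries lay together, and all treated libraries lay below them. Spipo0G0148600.v2 was likewise lower in every treated library, at 580 to 751 in indoor, 160 to 248 in middle and 121 to 497 in high libraries.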
